A study of Rattus norvegicus with 158 samples.

Results

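Etidronate is a bisphosphonate, a stable analogue of pyrophosphate that is used against bone resorption and that binds calcium and mineral surfaces. Its transcript profile in thigh muscle was read by setting 6 Etidronate arrays against the 18 arrays of rats that received Water alone, out of 122 compound and 36 vehicle arrays in the series. Arrays were assigned to groups by their labels, as 3 Etidronate rats at 3 d, 3 Etidronate rats at 5 d, 9 Water rats at 3 d and 9 Water rats at 5 d. Etidronate was given at 1005 mg/kg in Water and the Water rats received 0 mg/kg, all by daily oral gavage. Every animal was a male Sprague-Dawley rat of the CD-IGS stock, 6 to 8 weeks old when purchased and acclimated for 1 week, and harvests started at 7 a.m. at both times. PolyA RNA of each rat was read on 1 RG230_2.0 array, and levels are the deposited log2 values. The labelled tissue was met by its defining genes, since 9 markers of skeletal muscle fibre summed to between 17.13 and 17.18 on the log2 scale in Etidronate muscle and between 17.1 and 17.19 in Water muscle.

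In muscle, glucocorticoids and fasting act through the glucocorticoid receptor and the FoxO factors. These switch on ubiquitin ligases that break down myofibrils, brakes on the growth kinase mTOR, and enzymes that turn the fibre from glucose to fat. Nitrogen-containing bisphosphonates block farnesyl pyrophosphate synthase of the mevalonate pathway, whereas etidronate carries no nitrogen and is known for being built into analogues of ATP inside cells. The gene lists followed below cover these pathways, mineral and calcium handling, growth, matrix and vessels. They were chosen with earlier results of these data known. In whole muscle, fewer cells of a type and less RNA per cell cannot be told apart.

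A pair of the Water arrays, both of extraction batch B, stood apart. It is part of every comparison with Water below other than those within batch C, unless it is said to be left out. On Water 5 d replicate 4 the mean log2 level of 10 testis germ cell genes was 12.13, against 4.18 to 4.38 on the Etidronate arrays and 4.08 to 6.32 on the other 16 Water arrays. On Water 5 d replicate 9 the mean of 6 nerve genes was 10.17, against 5.47 to 5.93 on the Etidronate arrays and 5.35 to 6.78 on the other 16 Water arrays. That of 6 fat genes was 10.2, against 5.57 to 6.36 on the Etidronate arrays and 5.48 to 8.97 on the other 16 Water arrays. These marker genes were picked after the arrays had been seen to differ. Etidronate was dosed in a study, by title code, that holds 0 of the Water arrays, so study and compound cannot be told apart. Etidronate had 1 array in extraction batch B and 5 in batch C, while Water had 7 in batch A, 5 in B, 5 in C and 1 in E.

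Between Etidronate and Water, 352 of 14217 genes were called, which is 2.48% of those tested, with 124 higher (0.872%) and 228 lower (1.60%). These shares stand beside every count below of list members called over both times. A gene was called where limma, fitted over all genes with time as a covariate, gave a fold of at least 1.5 and, after Benjamini-Hochberg adjustment, a p of at most 0.01. The largest rise was 15.3-fold, the largest fall 4.4-fold, and the median size 1.82-fold. For 39 of the called risers and 54 of the called fallers all 6 Etidronate arrays lay outside the range of the 18 Water arrays, and over all genes tested 0.359% lay wholly above that range and 0.563% wholly below it. Without both Water arrays that stood apart, 423 genes were called, 340 of the 352 among them. Within batch C, with 5 Etidronate and 5 Water arrays, 84 genes were called and 77 of them were among the 352.

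**Figure D1:**
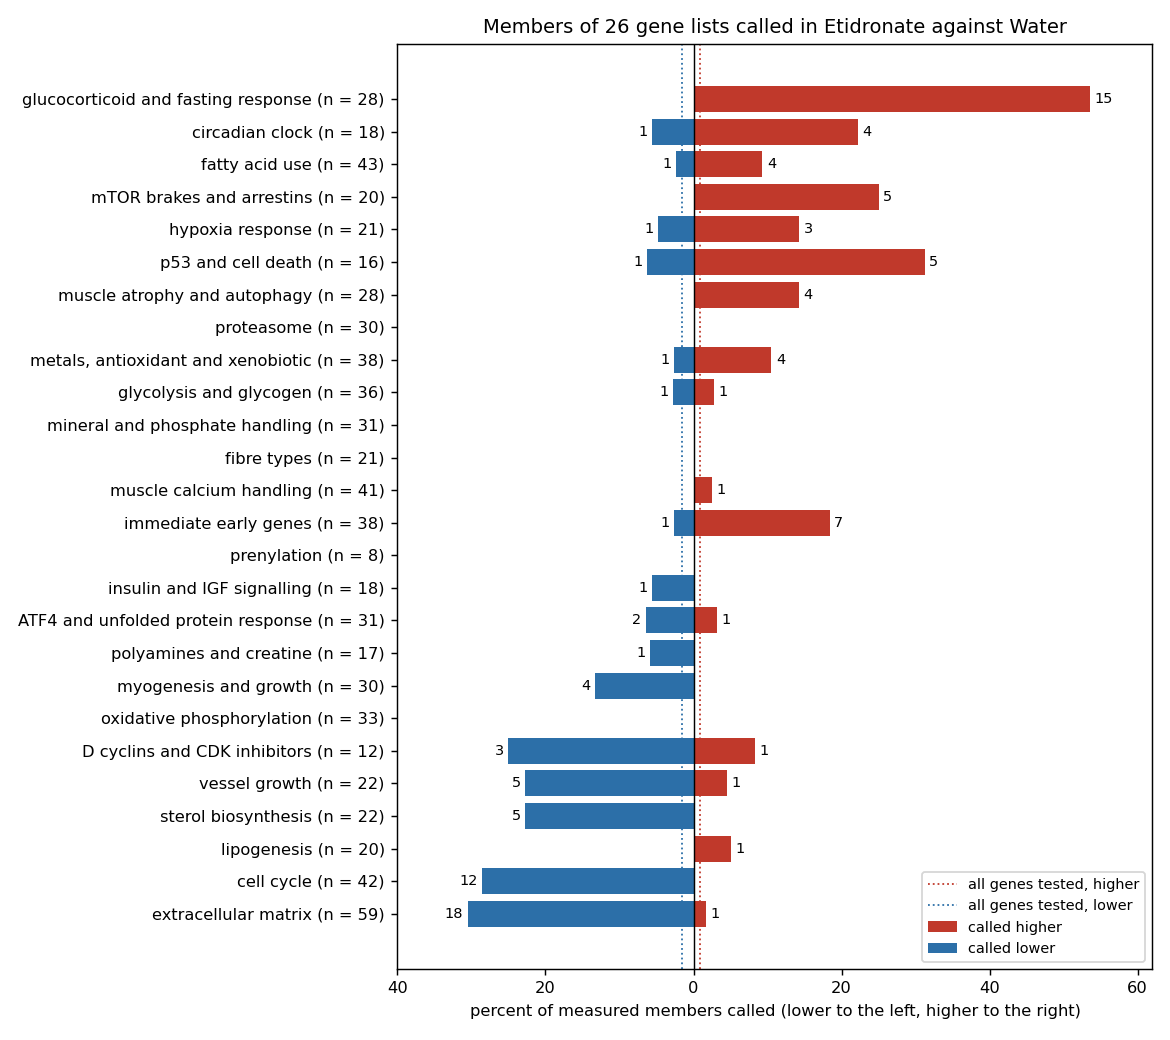
Percent of the measured members of each of 26 gene lists called lower (blue, to the left) or higher (red, to the right) in Etidronate against Water. Dotted lines give the share over all genes tested, 0.872% higher and 1.60% lower.

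Genes that glucocorticoids and fasting induce in muscle were higher. Of 28 measured, 15 rose and 0 fell, and the median difference was 0.96 on the log2 scale, against -0.01 over all genes tested. With extraction batch as a block 15 members rose, within batches B and C 14, and without both odd Water arrays 16.

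Among the regulators of this list, 9 of 12 rose. Klf15, a glucocorticoid-induced factor that drives amino acid breakdown, read 10.34, 10.50 and 10.07 at 3 d and 9.80, 9.59 and 9.54 at 5 d under Etidronate, against 8.07, 8.75 and 9.18 as the lowest, median and highest Water values. No Etidronate array reached into the Water range, and the rise was 2.44-fold (1.29 ± 0.16 on the log2 scale, SE, adjusted p = 1.3e-05). Cebpb, a factor of the same program, stood between 11.23 and 11.78 in Etidronate muscle and between 8.42 and 10.48 in Water muscle, a 3.34-fold rise. Nfkbia, the inhibitor that holds NF-kB in the cytoplasm, rose 3.70-fold, with levels of 9.87 to 10.40 under Etidronate against 7.53 to 9.58 under Water. Klf9 and the kinase Map3k6 rose 1.92-fold and 1.99-fold, also without overlap. For Errfi1, a feedback inhibitor of the EGF receptor, Cebpd, Per1 and Fkbp5, a chaperone partner of the glucocorticoid receptor, the rises were 4.39, 2.56, 2.72 and 2.45-fold, and each overlapped the Water range. Sgk1 and Dusp1 were not called, with differences of 0.60 (adjusted p = 0.0955) and -0.25 (adjusted p = 0.606).

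Among the enzymes and effectors of the list 6 of 16 rose. Glul, which makes glutamine for export from muscle, read 13.23, 13.45 and 12.74 at 3 d and 12.51, 12.50 and 12.38 at 5 d under Etidronate, against 11.23 to 12.43 under Water, a 2.16-fold rise. Cdkn1a, the cell cycle inhibitor p21, rose 2.59-fold. The other members were Ddit4, Sesn1, Pdk4 and Mt2A, described below.

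Ddit4 was the largest riser whose groups did not overlap. Its product, REDD1, restrains mTOR in stressed or glucocorticoid-treated muscle. Ddit4 read 11.62, 11.89 and 11.37 at 3 d and 10.45, 11.19 and 10.55 at 5 d in Etidronate muscle, while Water muscle ran from 6.47 through a median of 7.50 to 10.02. The rise was 10.4-fold (3.37 ± 0.46, adjusted p = 4.21e-05). Sesn1, a sestrin that restrains mTOR, and Eif4ebp1, the translation repressor that mTOR inactivates, rose 1.87-fold and 1.96-fold, again with all Etidronate arrays above the Water range. They made up 3 of 15 mTOR brakes, while Deptor, Sesn2 and Trib3 gave -0.54, -0.28 and 0.23 and were not called.

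Alpha-arrestins are adaptors that take receptors and transporters off the cell surface. Arrdc2 read 10.77, 10.37 and 10.51 at 3 d and 10.34, 10.61 and 10.90 at 5 d under Etidronate, against a Water range of 6.38 to 8.66 with a median of 7.07. This 9.81-fold rise (3.29 ± 0.29, adjusted p = 1.3e-07) was much the same in size at 3 d (3.33) and at 5 d (3.26). Arrdc3 rose 2.10-fold with overlap, and Arrdc1, Arrdc4 and Txnip were not called, with differences of 0.29, 0.19 and 0.41.

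**Figure D2:**
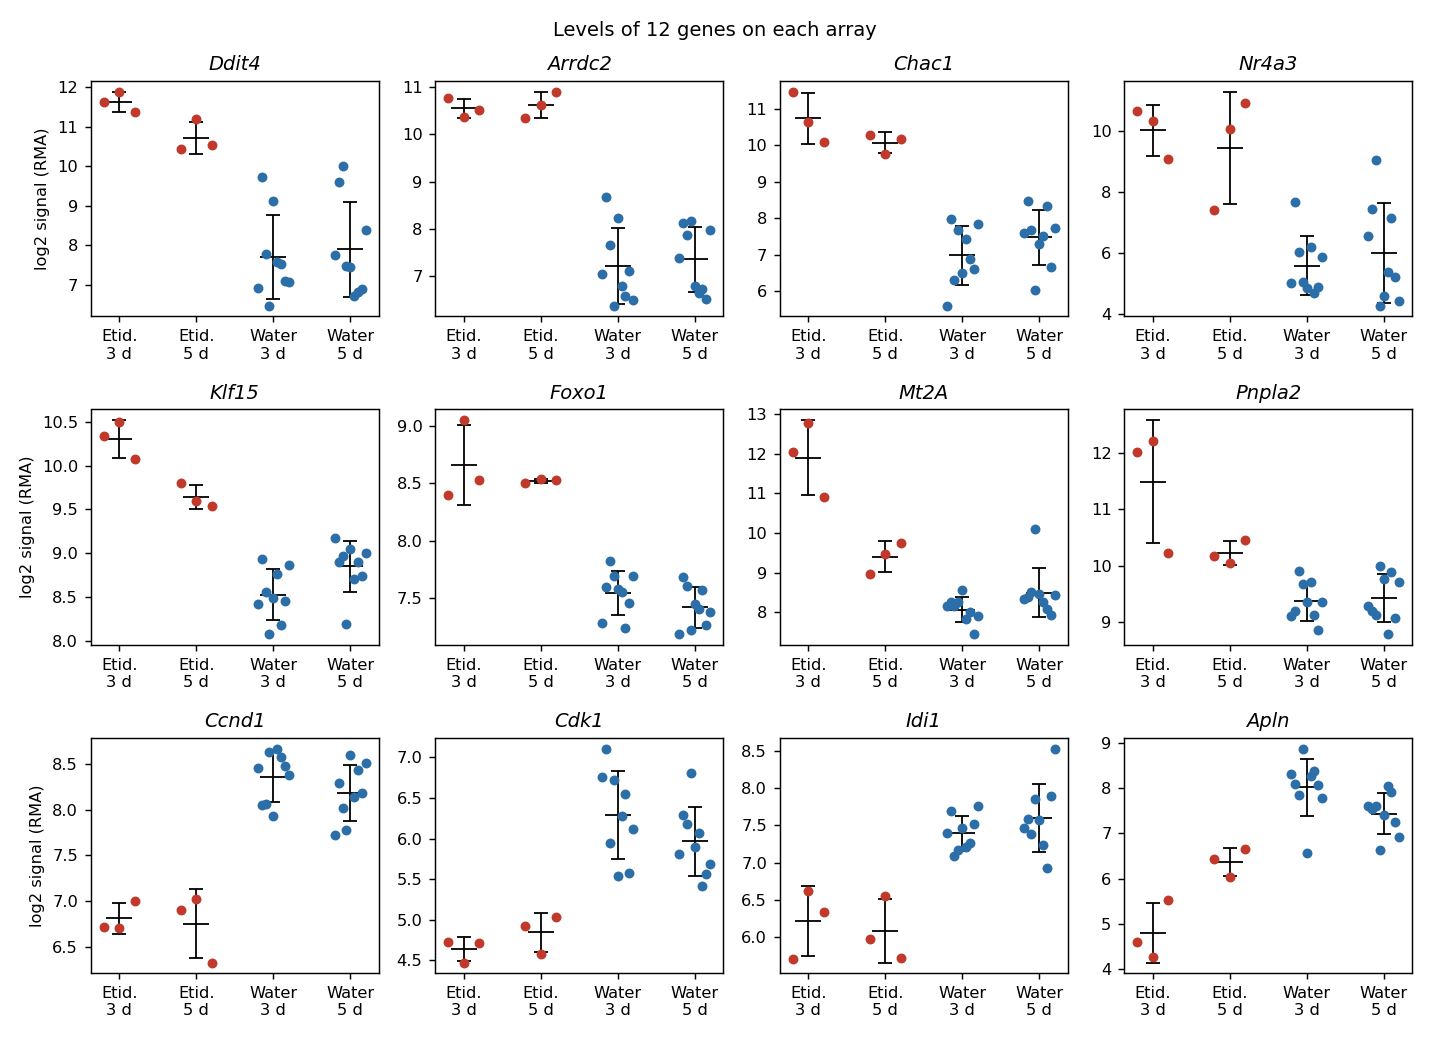
Deposited log2 signal of 12 genes on each array, with Etidronate at 3 d and 5 d (3 rats each) left of Water at 3 d and 5 d (9 rats each); bars give the mean and SD of each group. Ddit4 lies between 10.45 and 11.89 in Etidronate muscle and between 6.47 and 10.02 in Water muscle, while the groups of Nr4a3 and Mt2A overlap.

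Of 28 genes of muscle atrophy and autophagy, 4 rose and 0 fell, beside 0.872% and 1.60% of all genes tested. Foxo1, which turns on atrophy genes when insulin signalling falls, read 8.40, 9.05 and 8.53 at 3 d and 8.50, 8.53 and 8.53 at 5 d under Etidronate, and 7.19 to 7.83 under Water. It rose 2.15-fold (1.10 ± 0.09, adjusted p = 3.33e-08), and Foxo3 rose 1.78-fold (0.83 ± 0.09), each without overlap. Dimmer probe sets of Foxo1 gave 0.483 and 0.0421, and those of Foxo3 gave 0.0816 and 0.0406. Trim63, the ligase MuRF1 that tags myosin for breakdown, read 10.85 to 11.79 in Etidronate muscle against 9.99 to 10.68 in Water muscle and rose 1.82-fold, as 1 of 11 ubiquitin ligases. Fbxo32, the ligase atrogin-1, read 8.08, 8.09 and 7.05 at 3 d and 6.79, 6.29 and 6.06 at 5 d under Etidronate, against 5.28 to 7.29 under Water. It was called at 3 d (1.91) and gave -0.04 at 5 d, and the difference between the times had an adjusted p of 0.0327. Gabarapl1, which builds autophagosomes, rose 1.65-fold, as 1 of 14 genes of autophagy and lysosome, and a dimmer probe set gave 0.499. With batch as a block 4 members of the atrophy list rose, within batches B and C 3, and within batch C 2. Gabarapl1 was not called within batches B and C or within batch C.

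Promoters of the called genes were searched for known elements, with RefSeq entries of the build GRCr8 (250 bases before to 50 after a gene's start) for 102 risers and 183 fallers. The palindrome of the glucocorticoid response element, spelled GNACA, 3 bases of any kind, TGTNC, and the same on both strands, occurred in 0.422% of 27457 promoters and in 0.358% of the promoters of genes tested. It occurred in 4 of the 102 risers (3.92%), namely Trim63, Map3k6, Fam107a and Kcna5, and in 0 of the 183 fallers. Of the 24 members of the glucocorticoid and fasting list with an entry, 1 held it, Map3k6, as the 1 of 14 called members. The FoxO element GTAAACA, searched on both strands, stood in 3.76% of all promoters, in 2.46% of those of genes tested, in 4 of the risers (3.92%), in 5 of the fallers (2.73%) and in 2 of 21 atrophy genes with an entry. The stretches below show the glucocorticoid response element, not the FoxO element, in capitals for 3 of the 4 risers that hold it. They lie at chr5:151816986-151817105 (Trim63), chr5:150724007-150724126 (Map3k6) and chr15:19046331-19046450 (Fam107a), all on the plus strand.
Trim63: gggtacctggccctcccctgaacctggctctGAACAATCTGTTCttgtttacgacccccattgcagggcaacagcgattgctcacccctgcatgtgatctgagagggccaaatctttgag
Map3k6: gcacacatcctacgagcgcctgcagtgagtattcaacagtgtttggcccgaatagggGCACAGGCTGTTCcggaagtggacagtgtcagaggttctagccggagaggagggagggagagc
Fam107a: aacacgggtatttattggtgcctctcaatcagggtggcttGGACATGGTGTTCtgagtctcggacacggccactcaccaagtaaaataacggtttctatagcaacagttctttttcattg
The matches begin 219, 181 and 210 bases before the start of Trim63, Map3k6 and Fam107a. Fam107a, an actin-bundling stress gene, rose 2.80-fold and lay between 7.17 and 8.55 under Etidronate, against 5.71 to 7.13 under Water. A match is one of letters, and binding was not measured.

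Other risers without overlap lay outside these lists. Tmem252, a membrane protein, read 8.09 to 8.93 under Etidronate and 5.36 to 6.94 under Water, a 5.35-fold rise (adjusted p = 3.06e-08). Pim3, a serine-threonine kinase, rose 4.18-fold (adjusted p = 4.27e-10), with levels of 8.91 to 9.99 against 6.97 to 7.65. Fmo2, a flavin monooxygenase, Rhobtb1 and Mn1 rose 3.68, 2.34 and 2.44-fold. Gadd45g and Gadd45b, stress genes of growth arrest, rose 4.20-fold and 2.02-fold and were, with Bcl2l1, Cdkn1a and Sesn1, the 5 risers among 16 genes of p53 and cell death, where Plk2 fell 2.23-fold.

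NR4A receptors are orphan nuclear receptors that exercise, calcium and cAMP induce in muscle. Nr4a3 had the largest fold of all, 15.3-fold (3.94 ± 0.59, adjusted p = 0.000142), but its groups overlapped. It read 10.64, 10.33 and 9.06 at 3 d and 7.39, 10.04 and 10.91 at 5 d under Etidronate, against a Water range of 4.27 to 9.03 with a median of 5.28. Dimmer probe sets of Nr4a3 gave 2.24 and -0.0922. Nr4a1 rose 2.81-fold, and Nr4a2 gave 0.32 (adjusted p = 0.634). Of all 38 immediate early genes 7 rose and 1 fell, at a median of -0.03. Zfp36, an RNA-decay factor, rose 4.37-fold without overlap, Sik1, Maff, Dusp5 and Ccn2 rose 2.53, 2.52, 1.51 and 3.85-fold with overlap, and Egr1 fell 3.07-fold to between 6.73 and 7.74, against 7.62 to 10.38 under Water. Fos gave -1.36 (adjusted p = 0.139). Dusp5 was called in 8 of 24 fits that each left out 1 array. With batch as a block, 3 rises (Nr4a3, Nr4a1 and Zfp36) and the fall of Egr1 were called.

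The cAMP response element TGACGTCA, a palindrome too, stood in 1.91% of all promoters, in 2.86% of those of genes tested, in 5 of the 102 risers (4.90%), in 2 of the 183 fallers (1.09%) and in 5 of 27 immediate early genes with an entry. Maff and Slc25a25 are shown as risers that carry it, at chr7:112792679-112792798 on the plus strand and chr3:36116677-36116796 on the minus strand, with the element in capitals.
Maff: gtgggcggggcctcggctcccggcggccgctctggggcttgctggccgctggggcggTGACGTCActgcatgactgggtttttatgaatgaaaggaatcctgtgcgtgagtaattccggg
Slc25a25: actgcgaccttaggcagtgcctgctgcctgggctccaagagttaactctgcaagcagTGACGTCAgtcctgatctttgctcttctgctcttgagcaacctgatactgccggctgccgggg
The element begins 51 bases before the start of Maff. Maff read 7.07, 6.77 and 4.33 at 3 d and 4.52, 4.89 and 6.69 at 5 d under Etidronate, so that 2 of the 6 rats lay within the Water range of 4.06 to 4.81. Slc25a25, a calcium-gated ATP carrier of mitochondria, rose 5.65-fold, with levels of 10.11 to 11.68 under Etidronate against 6.95 to 10.60 under Water. It was the 1 gene called among 41 of muscle calcium handling, beside 2.48% of all genes tested. The median difference of that list was 0.00.

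Some genes of fat use were called. Pdk4, the kinase that shuts pyruvate out of the tricarboxylic acid cycle, read 11.81, 11.59 and 12.12 at 3 d and 12.56, 12.51 and 12.69 at 5 d under Etidronate, against 9.45 to 11.91 under Water, and rose 2.95-fold. Pnpla2, the triglyceride lipase, read 12.02, 12.20 and 10.23 at 3 d and 10.17, 10.04 and 10.45 at 5 d, all above the Water range of 8.78 to 9.99, and rose 2.75-fold. Ehhadh, a peroxisomal oxidation enzyme, and Plin5, a lipid droplet protein, rose 2.15-fold and 2.04-fold, and Plin2, another droplet protein, fell 1.54-fold. Of 43 members 4 rose, beside 0.872% of all genes tested, and 1 fell, beside 1.60%. A positive difference was found in 37, and the median was 0.32. With batch as a block 2 members rose and 0 fell, within batches B and C 1 rose, and within batch C 0. All 22 genes of beta oxidation had a positive difference, and 1 of them was called. In glycolysis and glycogen, Pfkfb3, which makes the activator of phosphofructokinase, rose 4.96-fold with levels of 9.33 to 11.76 against 4.94 to 9.59, Eno1 fell 1.75-fold without overlap, and 34 of 36 members were not called.

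Of 20 lipogenic genes, Srebf1, their regulator, rose 1.86-fold, and with batch as a block 0 were called. Scd, the stearoyl-CoA desaturase, lay between 5.45 and 6.31 in Etidronate muscle and between 5.90 and 11.40 in Water muscle, a difference of -1.75 (adjusted p = 0.0673), and Fasn gave -1.17 (adjusted p = 0.0459). Marker genes of fat cells had a median of -0.62 over 6 genes, 0 of them called, and their summed log2 level was 10.57 to 11.34 under Etidronate and 10.79 to 13.05 under Water. Adipoq, which defines fat cells, read 5.17 to 5.98 under Etidronate and 4.89 to 10.31 under Water. The part of fat cells in the lipogenic values was not tested.

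Chac1, which degrades glutathione and is a target of the stress factor ATF4, rose 9.07-fold. It read 11.47, 10.65 and 10.10 at 3 d and 10.28, 9.76 and 10.18 at 5 d in Etidronate muscle, above the 5.59 to 8.48 of Water muscle (3.18 ± 0.34, adjusted p = 2.87e-06). It was the 1 riser among 31 genes of the ATF4 and unfolded protein response, beside 0.872% of all genes tested. The median of that list was -0.04. Asns, Trib3 and Ddit3, other targets, gave -0.61, 0.23 and -0.38 and were not called, and Psph and Aldh18a1, of serine and proline synthesis, fell 1.59-fold and 1.65-fold.

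Differences were larger at 3 d than at 5 d for most called genes. All 352 had the same sign at both times, 286 were larger at 3 d, and the median size was 1.03 at 3 d and 0.69 at 5 d on the log2 scale. Tested at each time alone, 560 genes were called at 3 d (3.94%) and 51 at 5 d (0.359%), and the 35 shared were 6.25% of the 3 d calls and 68.6% of the 5 d calls. The 3 d count was 199 without Etidronate 3 d replicate 1, 124 without replicate 2 and 860 without replicate 3. Replicate 3 was the 3 d rat nearest to the Water median in 245 of the 352 genes (69.6%). At 3 d alone the largest fall was that of Nmrk2, a kinase of NAD synthesis, at -3.77, against 0.17 at 5 d. At 5 d the largest falls were those of Myod1, the myogenic factor (-1.80), and Idi1 (-1.52).

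A test of the difference between the times called 8 genes (0.0563%), with 1 higher (0.00703%) and 7 lower (0.0492%) in the 5 d difference than in the 3 d difference, and all larger in size at 3 d. Mt2A, a metallothionein that binds zinc and that glucocorticoids induce, read 12.03, 12.78 and 10.90 at 3 d and 8.98, 9.47 and 9.75 at 5 d under Etidronate, against 7.45 to 10.10 over all Water arrays. Its differences from Water were 3.84 at 3 d and 0.90 at 5 d (adjusted p = 0.00894 for the change). Bcat2, which starts the breakdown of branched-chain amino acids, gave 1.63 at 3 d and 0.39 at 5 d. Aldh2, an aldehyde dehydrogenase, gave 1.40 and 0.30, and Acvr2b, a receptor of myostatin, 1.11 and -0.38. Ypel3, Csnk2a2 and LOC100912629 were likewise higher at 3 d, and Chpt1, of phosphatidylcholine synthesis, gave -0.65 at 3 d and 0.21 at 5 d. No gene was called with extraction batch or hybridization period as a block or without any 1 of 5 Etidronate arrays, while 239 were called without Etidronate 3 d replicate 3. All 3 Etidronate arrays of 3 d were in hybridization period 1, while at 5 d 1 was in period 1 and 2 in period 2. Water had 8 arrays in period 1 and 1 in period 2 at each time. The 1 Etidronate array of batch B was of 3 d.

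**Figure D3:**
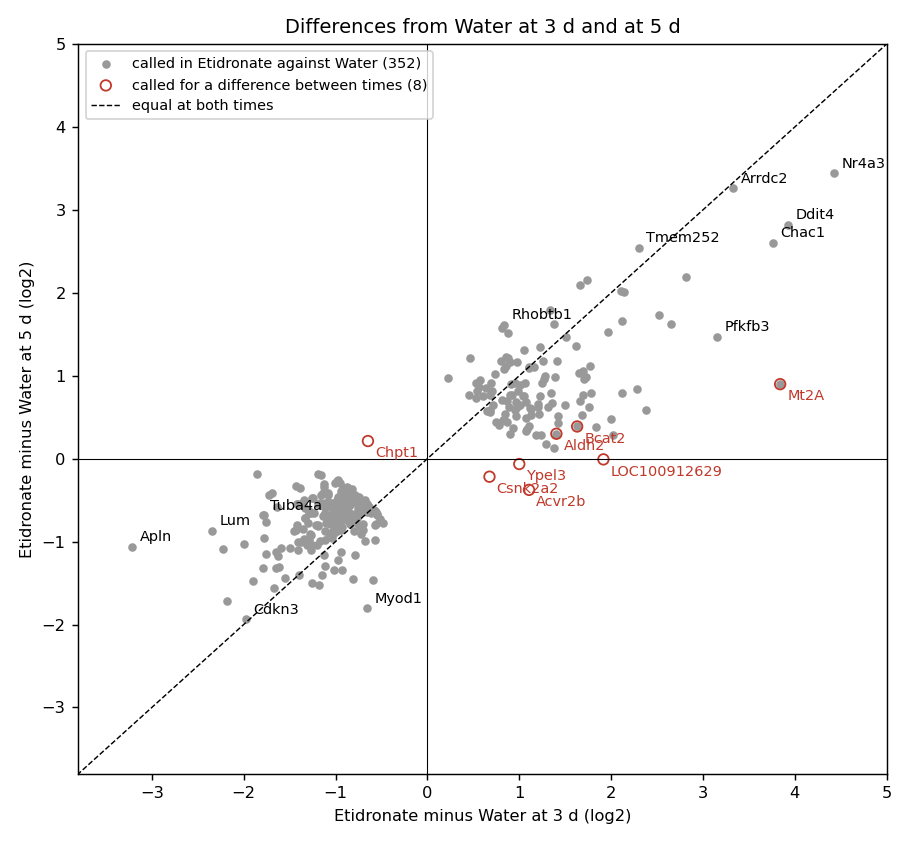
Difference of Etidronate from Water at 3 d (x axis) and at 5 d (y axis), both on the log2 scale, for the 352 genes called over both times and the 8 genes called for a difference between the times. Mt2A lies at 3.84 and 0.90, and Arrdc2 at 3.33 and 3.26, near the line of equal differences.

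Proteasome subunits carry out the breakdown that ubiquitin ligases start. Of 30 measured, 10 were called higher at 3 d, beside 1.93% of all genes, and 0 at 5 d. Their median differences were 0.52 at 3 d and -0.12 at 5 d, all 30 were lower at 5 d than at 3 d in their difference, and for 8 the change had an adjusted p of 0.05 or less, beside 0.626% of all genes. Psmd3, a lid subunit, read 10.00, 10.71 and 9.48 at 3 d and 9.09, 9.10 and 8.96 at 5 d under Etidronate, against 8.67 to 9.22 under Water. Over both times 0 subunits were called.

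Of 18 clock genes, Per1, Per3, Nr1d2 and Usp2 rose 2.72, 1.77, 1.67 and 1.69-fold. The activator Bmal1 fell 1.51-fold and read 7.03 to 8.01 under Etidronate, against 7.70 to 8.41 under Water. At 3 d alone 5 were called higher, beside 1.93% of all genes, and 2 lower, beside 2.01%, at a median of 0.81. At 5 d 0 were called, at a median of 0.03. With batch as a block 3 clock genes rose and 1 fell over both times. Within batches B and C the counts were 3 and 0, and within batch C 1 and 0. Of 24 fits that each left out 1 array, Usp2 was called in 6 and Bmal1 in 18.

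Sterol synthesis was lower in part, with 5 of 22 genes called lower, beside 1.60% of all genes tested, 0 higher, and a median of -0.27. Idi1, the isomerase that supplies farnesyl pyrophosphate synthase, read 5.70, 6.62 and 6.33 at 3 d and 5.97, 6.55 and 5.72 at 5 d under Etidronate, all below the Water range of 6.92 to 8.53. It fell 2.55-fold (-1.35 ± 0.17, adjusted p = 1.67e-05). Cyp51, the lanosterol demethylase, stood between 7.14 and 7.77, against 8.28 to 9.79 under Water, and fell 2.31-fold. Sqle, Msmo1 and Nsdhl, other enzymes of the path, fell 1.76, 1.71 and 1.5-fold. Nsdhl was called in 12 of 24 fits that each left out 1 array. With batch as a block 3 members were called, and within batches B and C 2. Fdps, the enzyme that nitrogen-containing bisphosphonates inhibit, was not called, at 9.25 to 9.51 under Etidronate and 9.35 to 10.24 under Water (-0.24, 95% interval -0.44 to -0.05, adjusted p = 0.102). None of 8 prenylation genes was called, at a median of -0.04. The sterol regulatory element TCACNCCAC, searched on both strands, was in 1.13% of all promoters, in 1.12% of those of genes tested, in 4 of the 102 risers (3.92%), in 2 of the 183 fallers (1.09%) and in 0 of 18 sterol genes with an entry.

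Genes of cell division were lower in part. Of 42 measured, 12 fell and 0 rose, 41 had a negative difference and the median was -0.33, and all 12 were among 29 genes of G2 and mitosis. Cdk1, the kinase that drives entry into mitosis, read 4.72, 4.47 and 4.72 at 3 d and 4.92, 4.57 and 5.03 at 5 d under Etidronate, below every Water array (5.42 to 7.11, median 6.09), and fell 2.62-fold (-1.39 ± 0.20, adjusted p = 8.85e-05). Top2a, which untangles chromosomes, lay between 4.91 and 5.06, against 5.46 to 6.80 under Water, and fell 2.23-fold. Such levels are low on these arrays, where the summary method compresses differences. Cdkn3 read 10.55 on Water 5 d replicate 4, the array with testis transcripts, and at most 4.48 under Etidronate; without both odd Water arrays its difference was -1.71, against -1.96 with them. Without those arrays 13 members were called, with batch as a block 8, within batches B and C 3, and within batch C 6. Both odd Water arrays are part of the fit within batches B and C and not of that within batch C.

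The cell cycle homology region TTTGAA, searched on both strands, where its reverse complement reads TTCAAA, stood in 18.1% of all promoters, in 12.3% of those of genes tested, in 2.94% of the 102 risers and in 16.4% of the 183 fallers. It stood in 9 of the 10 called cell cycle genes with an entry and in 17 of 34 list members with one. It is shown in capitals for Cdk1 (chr20:19265220-19265339, plus strand), Ccnb2 (chr8:79981639-79981758, minus strand), Top2a (chr10:84473053-84473172, minus strand) and Prc1 (chr1:143659406-143659525, plus strand), which all fell without overlap.
Cdk1: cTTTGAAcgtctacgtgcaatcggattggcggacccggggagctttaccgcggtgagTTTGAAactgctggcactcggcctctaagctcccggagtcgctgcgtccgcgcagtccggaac
Ccnb2: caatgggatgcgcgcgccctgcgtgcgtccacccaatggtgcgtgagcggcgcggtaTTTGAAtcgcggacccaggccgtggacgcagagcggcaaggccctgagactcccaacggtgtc
Top2a: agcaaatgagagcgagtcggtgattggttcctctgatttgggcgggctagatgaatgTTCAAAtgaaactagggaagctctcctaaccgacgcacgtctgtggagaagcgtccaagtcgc
Prc1: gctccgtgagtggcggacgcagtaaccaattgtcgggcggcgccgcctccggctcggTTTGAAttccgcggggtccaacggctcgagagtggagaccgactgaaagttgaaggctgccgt
The matches begin 72 and 16 bases before the start of Cdk1, 43 before that of Ccnb2, 22 before that of Top2a and 18 before that of Prc1. Ccnb2, a mitotic cyclin, and Prc1, of the spindle midzone, fell 2.64-fold and 2.80-fold.

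Among D cyclins and inhibitors, Ccnd1, which starts the cycle, read 6.72, 6.71 and 7.00 at 3 d and 6.91, 7.02 and 6.32 at 5 d under Etidronate, below the Water range of 7.73 to 8.67. It fell 2.81-fold (-1.49 ± 0.13, adjusted p = 9.06e-08). Ccnd2 and the inhibitor Cdkn1c fell 1.79-fold and 2.01-fold with overlap. Further fallers without overlap were the transcription factor Sox4 (3.22-fold), the receptor Lpar6 (2.93-fold), Id3 (2.59-fold), Trib2 (2.42-fold), the tubulin Tuba4a (2.36-fold) and Meox2 (2.28-fold). The 6 dimmer probe sets of Sox4 ran from -0.921 to 0.107, and the mean of its probe sets gave -0.54 and was not called. Of 30 genes of myogenesis and growth 4 fell, namely Sox4, Myod1 (2.35-fold), Atp1b4 (3.15-fold) and the growth factor Igf1 (1.82-fold), the last 3 with overlap. With batch as a block, and within batches B and C, 1 of them was called, Sox4. Atp1b4 was called in 10 of 24 fits that each left out 1 array.

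Extracellular matrix held the largest number of fallers of any list, 18 of 59, with 1 riser and a median of -0.50. Lum, a small proteoglycan of collagen fibrils, read 8.41, 7.10 and 9.22 at 3 d and 9.85, 9.26 and 9.58 at 5 d under Etidronate, against 9.10 to 11.37 under Water, and fell 3.04-fold (-1.60 ± 0.28, adjusted p = 0.000582). Postn, Col14a1 and Pcolce, which shape collagen fibrils, fell 2.74, 2.63 and 2.22-fold, and Col6a1, Col6a2 and Col6a3, of the net around fibres, 1.83, 1.80 and 1.82-fold. A dimmer probe set of Col6a2 gave 0.252. In 24 fits that each left out 1 array, Col6a2 was called in 12 and Postn in 8. Col3a1 fell 1.69-fold, while Col1a1 gave -0.59 (adjusted p = 0.0557). The riser was Timp3, an inhibitor of matrix proteases, at 1.57-fold without overlap. With batch as a block 12 members fell, within batches B and C 6, and within batch C 0.

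Markers of fibroblasts and macrophages leaned lower beside the matrix, with overlap. Fibroblast markers summed to 13.94 to 14.89 under Etidronate and 14.39 to 15.42 under Water, with all 6 differences negative and 2 called, Lum and Col3a1, which are matrix genes as well. Macrophage markers summed to 9.30 to 9.87 under Etidronate and 9.50 to 11.21 under Water, with all 9 negative, and C1qa, a complement subunit, fell 2.26-fold. With batch as a block 1 fibroblast and 0 macrophage markers were called, and within batches B and C 0 of either. Endothelium, with 1 marker called lower, tendon, lymphocytes and satellite cells had medians of 0.01, 0.05, 0.04 and 0.06. Red blood cells, smooth muscle and Schwann cells gave -0.13, -0.12 and -0.19, and bone and cartilage -0.004. The summed level of red blood cell markers was lower too, at 11.97 to 12.65 under Etidronate and 12.47 to 13.29 under Water. That of bone and cartilage markers was 8.18 to 8.80 under Etidronate and 8.31 to 9.42 under Water. In both lists 0 markers were called. All 3 neutrophil markers had a positive difference, and 1 was called higher. The part of fibroblasts and macrophages in the matrix values was not tested.

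**Figure D4:**
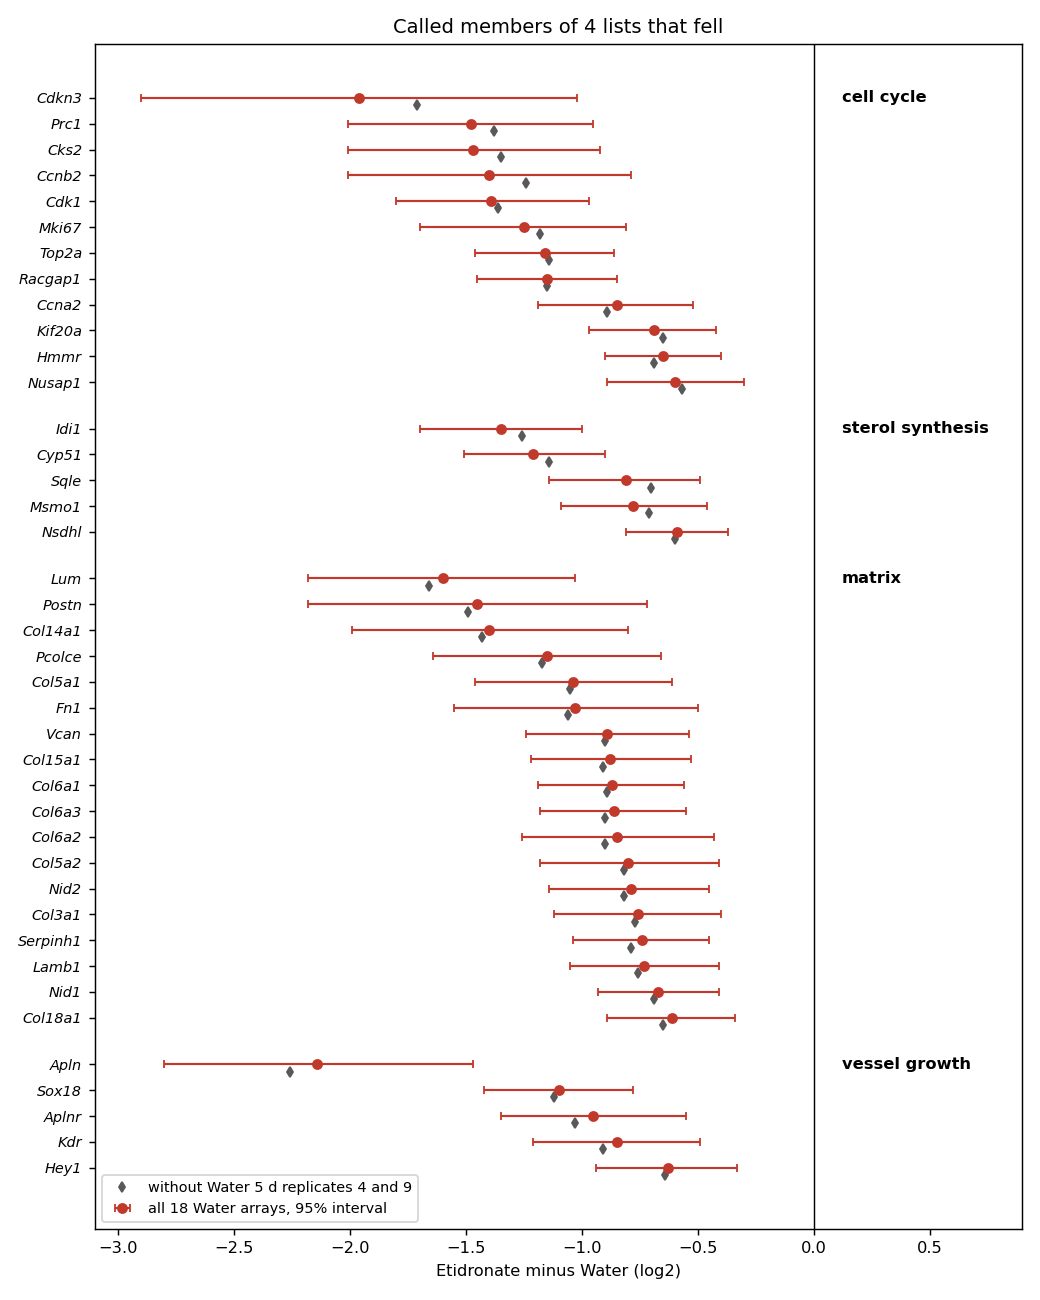
Difference of Etidronate from Water on the log2 scale for 40 genes called lower in the cell cycle, sterol, matrix and vessel lists, with 95% intervals and the value without both odd Water arrays. Cdkn3 lies at -1.96 with all arrays and at -1.71 without those 2.

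Of 22 genes of vessel growth, 5 fell and 1 rose, beside 1.60% and 0.872% of all genes tested. Apln, the peptide apelin of sprouting endothelium, read 4.61, 4.26 and 5.54 at 3 d and 6.43, 6.03 and 6.65 at 5 d under Etidronate, against 6.56 to 8.87 under Water. It had the largest fall of all, 4.4-fold (-2.14 ± 0.32, adjusted p = 0.000139), with -3.21 at 3 d and -1.06 at 5 d, and another probe set of Apln gave -0.55. Its receptor Aplnr fell 1.93-fold, the VEGF receptor Kdr 1.80-fold and Hey1 1.55-fold. The endothelial factor Sox18 fell 2.14-fold without overlap, and its relative Sox17 rose 1.63-fold. Dimmer probe sets of Aplnr and Kdr gave -0.126 and 0.0989, and those of Sox17 gave 0.489 and 0.01. The mean of the probe sets of Aplnr gave -0.54 and was not called. With batch as a block 4 genes fell and 0 rose, within batches B and C 2 and 0, and within batch C 1 and 0. The endothelial marker Pecam1 gave 0.21 (adjusted p = 0.391).

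Of 31 genes of mineral and phosphate handling 0 were called over both times, at a median of 0.01. At 3 d alone Ankh, which exports pyrophosphate from cells, was called lower, beside 2.01% of all genes. It read 8.77, 8.46 and 8.99 at 3 d and 9.41, 9.60 and 9.90 at 5 d under Etidronate, against 8.94 to 9.93 over all Water arrays, with differences of -0.73 at 3 d (adjusted p = 0.0067) and 0.19 at 5 d (adjusted p = 0.0746 for the change). Without both odd Water arrays Omd, a proteoglycan of bone matrix, was called higher, at 0.72, against 0.63 with them (adjusted p = 0.164). Alpl, the phosphatase that splits pyrophosphate, gave 0.31 (95% interval 0.06 to 0.55), and Enpp1, which makes pyrophosphate, gave -0.16 (-0.41 to 0.09). Of 33 genes of oxidative phosphorylation and 21 of fibre types 0 were called. Myh7, the slow myosin, ranged from 5.40 to 13.90 over the Etidronate rats and from 4.29 to 13.75 over the Water rats, so the arrays differed widely in slow fibre RNA within each group. Under Etidronate it read 13.78, 5.40 and 10.54 at 3 d and 13.90, 11.48 and 13.68 at 5 d. The 9 slow fibre genes had median differences from Water of -0.85 at 3 d and 1.82 at 5 d, and all 9 were higher at 5 d than at 3 d in their difference, while 0 had an adjusted p of 0.05 or less for that change. The part of slow fibres in the differences between the times was not tested.

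Etidronate was then set directly against Losartan, a compound of the same vehicle with the same split over extraction batches (1 array in B and 5 in C). Of 14217 genes 0 were called by limma (0%), with 1572 at an unadjusted p under 0.05. Stab1, a scavenger receptor of macrophages and endothelium, and Lasp1, an actin-binding protein, had the smallest adjusted p, 0.0198 each, at -0.95 (95% interval -1.20 to -0.71) and -0.63 (-0.80 to -0.46). Stab1 read 5.73 to 6.39 under Etidronate and 6.81 to 7.21 under Losartan. Ddit4, Arrdc2 and Foxo1 were not called, with differences of 0.33 (-0.14 to 0.80), 0.41 (0.04 to 0.78) and 0.04 (-0.32 to 0.40). Ddit4 read 10.53 to 11.10 under Losartan, inside the Etidronate range. Of the 228 genes called lower than Water, 219 were also lower than under Losartan, at a median of -0.50. For 12 of the 228 limma gave an adjusted p of at most 0.05. Of the 124 called higher, 102 were higher than under Losartan, at a median of 0.22, and 0 reached that p. The same Etidronate arrays enter both comparisons, so these signs are not independent. The matrix list had a median of -0.55 against Losartan and -0.14 against Gabapentin, and the fibroblast markers -0.62 and -0.06.

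Against Gabapentin, another Water-vehicle compound with 4 arrays in batch C and 2 in E, 13 genes were called (0.0914%), 2 higher (0.0141%) and 11 lower (0.0774%). Cdkn1a read 9.28 to 10.31 under Etidronate and 7.74 to 9.03 under Gabapentin, a difference of 1.38 (adjusted p = 0.00157), and Selenbp1 gave 1.61. Of the 11 lower, 8 were on the list of cell division, whose 42 members had a median of -0.26, and were led by Cdkn3 (-1.26) and Ccnb2 (-1.07), with Prc1 (-0.99), Cdk1 (-0.91) and Mki67 (-0.88). Cdk1 read 4.47 to 5.03 under Etidronate and 5.23 to 5.95 under Gabapentin. With batch as a block 0 of the 13 were called. Against the other Water-vehicle compounds of batch C, 4 genes were called (0.0281%), 2 in each direction (0.0141% higher and 0.0141% lower). Ccbe1 (0.90) and Fibin (0.76) were higher, and Sox7 (-1.09) and Gja5 (-0.59) lower. When any 1 of the 5 Etidronate arrays was left out, 0 were called.

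**Figure D5:**
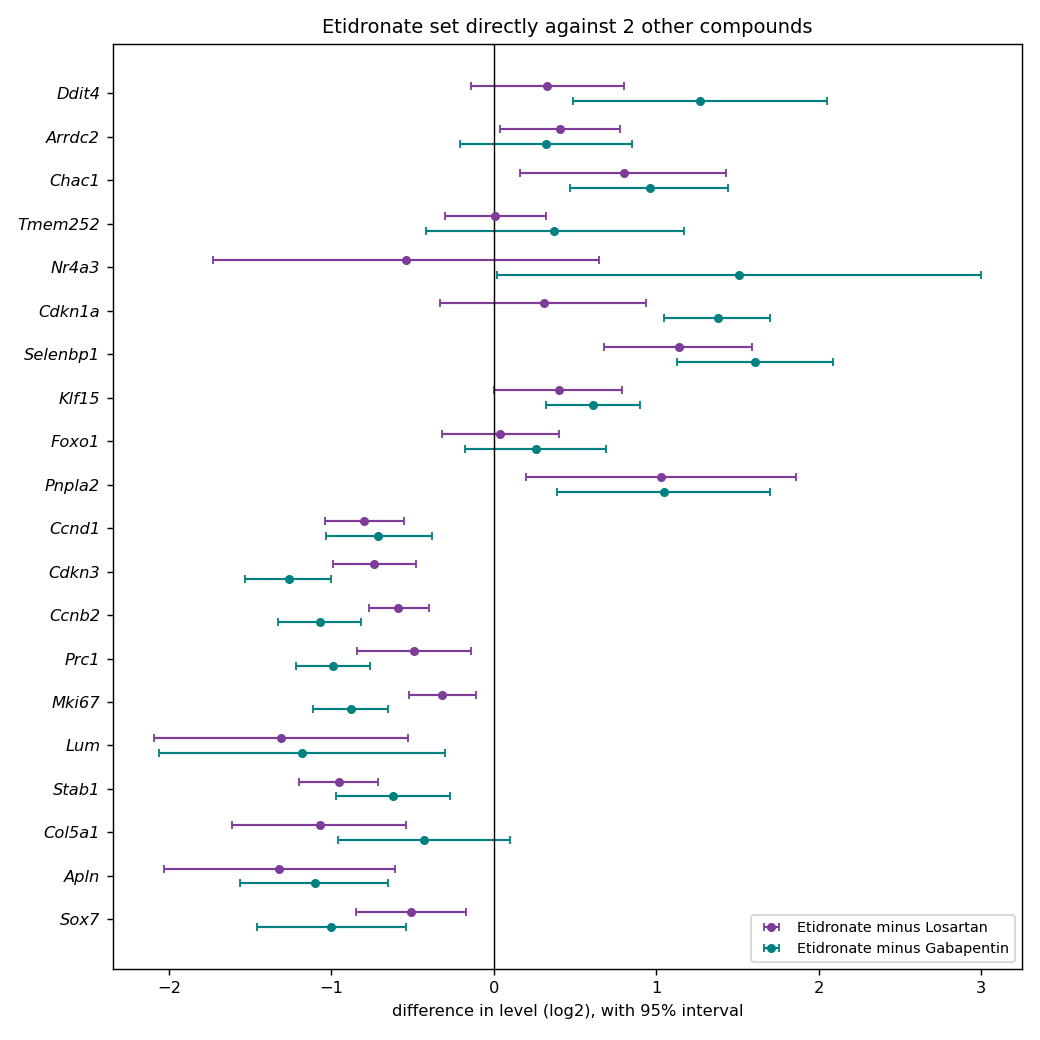
Difference of Etidronate from Losartan and from Gabapentin on the log2 scale for 20 genes, with 95% intervals. Ddit4 lies at 0.33 against Losartan and at 1.27 against Gabapentin.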

How the data were processed

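Thigh muscle RNA of single rats was read on RG230_2.0 arrays, 1 array a rat. The authors deposited log2 values made by RMA, whose version is not given in the sources used here, nor is which arrays were normalized together. The table held 31099 probe sets, of which 20826 had 1 gene symbol in the platform annotation, 436 several and 9780 none. For each of 14217 genes the probe set with the highest mean over all arrays of the series was tested. No detection calls were used, and the number of arrays limits the precision. Etidronate was tested against Water with limma 3.58.1 in R 4.3.3, with time as a covariate. It was also set directly against Losartan, Gabapentin and the other Water-vehicle compounds of batch C. All p-values were adjusted over all genes, and the code was tested on simulated data. Genes were named if they were the 15 largest rises or falls without overlap, called members of a list, or the 5 largest each way in other comparisons. Further genes named in the text as not called, or called in some fits only, or from the search of promoters, were picked after their values were seen. The members and lists were chosen with earlier results of these data known. The samples were biological triplicates by the series text. Alternatives covered extraction batch, hybridization, scaling, probe sets, dim genes, the methods' t-test and each array left out. Figures were drawn with matplotlib 3.10.9.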

Additional observations from a re-analysis of the deposited data

Results flagged for a closer look

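Among 236 pairs of a named gene and a Water group, 23 held a single array far from the others (9.75%, where chance gives about 5%). Of these, 11 were on Water 5 d replicate 4, the array with testis transcripts, which was high for Ccnb2 (8.43), Cks2 (7.97), Prc1 (8.92), Cdkn3 (10.55), Kif20a (6.77), Nusap1 (7.72), Mt2A (10.10) and Usp2 (11.06) and low for Klf15 (8.19), Adm (4.55) and Sesn1 (8.14). On Water 5 d replicate 9, the array high in nerve and fat genes, Cyp51 (9.79), Msmo1 (9.30), Lpar6 (8.62) and Ccnd2 (8.83) were high. Water 3 d replicate 5 was low for Cks2 (5.19) and Apln (6.56) and high for Glul (11.94). Water 3 d replicate 2 was high for Errfi1 (10.25) and Nr4a3 (7.66), replicate 3 was low for Pfkfb3 (4.94) and high for S100a9 (5.44), and replicate 1 was high for Nid2 (10.07).

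For 8 genes the difference from Water changed between the times by limma's test of the change. On the log2 scale the difference at 5 d minus that at 3 d was -2.94 for Mt2A, -1.93 for LOC100912629, -1.48 for Acvr2b, -1.24 for Bcat2, -1.10 for Aldh2, -1.06 for Ypel3, -0.89 for Csnk2a2 and 0.86 for Chpt1.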

How the results depend on the processing

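The 118 named genes kept their sign in all 4460 pairs of gene and setting over 38 settings. This was largely fixed in advance, since the genes were picked as called in these arrays. Of the settings, 24 left out only 1 array each, and some changed the test and not the estimate. The genes were called in 3978 pairs, and 32 genes were called under every setting. The 352 calls became 142 within batches B and C (73 higher, 69 lower, 134 shared) and 84 within batch C, and ranged from 220 (without Etidronate 3 d replicate 1) to 427 (without Water 5 d replicate 4) when 1 array was left out; 226 were called without Etidronate 3 d replicate 2. Calls split 124 higher to 228 lower in the values as deposited, 148 to 172 with arrays centred on their medians and 144 to 186 after repeated quantile normalization. The methods' t-test gave 482 genes before and 296 after Benjamini-Hochberg. The 8 calls for time became 0 with extraction batch or hybridization period as a block and ranged from 0 to 239 when 1 Etidronate array was left out. The 560 calls at 3 d ranged from 124 to 860, and the 51 at 5 d from 14 to 48, and were 33 with extraction batch and 18 with hybridization period as a block. The 13 calls against Gabapentin became 0 with batch as a block and 1 among genes above the median level, and ranged from 6 to 28. The 4 calls against other Water-vehicle compounds of batch C became 1 among genes above the median level and 0 when 1 Etidronate array was left out. Calls against Losartan were 0 throughout. Of 105 list members called, 54 were called within batches B and C and 35 within batch C. The setting without both odd Water arrays was chosen after seeing the data, and gave 5 calls for time. The causes were not tested. No paired analysis was possible because replicate numbers were given in accession order and pair no samples.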

Other observations

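Genes of metals, antioxidants and foreign compounds had 4 risers and 1 faller among 38 measured, beside 0.872% and 1.60% of all genes tested. Within batches B and C the list had 2 risers and 1 faller. Gstm2, a glutathione transferase, read 10.72, 11.29 and 10.39 at 3 d and 9.04, 9.84 and 9.04 at 5 d under Etidronate, against 7.67 to 9.34 under Water, and rose 2.80-fold. Nqo1, a quinone reductase, rose 1.95-fold with overlap. Tiparp, which the aryl hydrocarbon receptor induces, was 2.07-fold higher without overlap, and the zinc importer Slc39a10 fell 1.79-fold without overlap.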
